A study of Homo sapiens with 15 samples.

Results

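The comparison set H1299 cells that had glutamine and no glucose against H1299 cells that had glucose and no glutamine, so that each arm lacked the nutrient that the other held. It covers 6 of the 15 libraries of the series, chosen by the labelled medium alone: 3 libraries from medium with 4 mM glutamine (called here the glutamine libraries) and 3 from medium with 5 mM glucose (the glucose libraries), with all genes of the deposited count table. H1299 is a long-established human line derived from a non-small cell carcinoma of the lung. Both arms were first grown in complete medium with fetal bovine serum, were then washed, and spent 12 h in RPMI without serum before RNA was taken, so serum was absent from both. Differences are given as glutamine minus glucose on the log2 scale, so a negative value is higher with glucose. The standard error (SE) given with a difference is its size divided by the square root of the F statistic of its test. Mean levels from the medium with both nutrients and from the medium with neither, 3 libraries each, are set beside the differences as reference levels. The labels speak of triplicate cells and name neither a day nor a batch. The p-values rest on the spread among libraries alone, estimated over all 15 libraries of 5 media, and this spread may be technical. The medium not otherwise used here held 5 mM glucose and 4 mM NH4Cl without glutamine, and its libraries enter only the filter, the scaling and the spread. Only 1 line was studied at 1 time.

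Cells read the supply of these nutrients through several RNA programs. Glucose feeds the sugar chains that are attached to proteins in the endoplasmic reticulum (ER), and proteins that fail to fold there activate the sensors IRE1, PERK and ATF6, whose downstream factors raise ER chaperone genes. Loss of amino acids activates the kinase GCN2, which like PERK phosphorylates the initiation factor eIF2 and raises translation of ATF4, the factor that turns on genes of amino acid synthesis, transport and tRNA charging. Heat shock factor 1 raises cytosolic chaperone genes, SREBP factors raise genes of sterol and fatty acid synthesis, and MondoA raises a small set of genes when glucose phosphates accumulate.

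The glutamine libraries held 16290419 to 19938691 counted reads and the glucose libraries 15892933 to 16823178. Levels are CPM, counts scaled to a common library total after TMM scaling, a correction for differences in composition, and 3 counts, the floor used here, came to 0.150 to 0.183 CPM in these 6 libraries. A floor of this kind covers counting error only. The TMM factors were 1.006 to 1.009 with glutamine and 1.066 to 1.085 with glucose, and the 10 most counted genes held 7.08% ± 0.0132 of counts with glutamine and 5.57% ± 0.043 with glucose (SD, n = 3 each, exact permutation p = 0.1, two-sided, the smallest that 3 against 3 allows). Glucose replicate 1 stood apart in having counts in 35114 genes against 24753 to 26445 in the other 5 libraries, and the 2-fold and 4-fold counts and the shares by gene type are also given without it. Glucose replicate 2 stood apart in another way: the chi-square per degree of freedom of counts over genes was 2.407 and 2.358 against the other glucose libraries, and 1.227 to 1.316 in every other pair within a group. Of 7 genes that mark the carcinoma line 5 were measured, summing to 3190 to 3230 CPM with glutamine and 2300 to 2370 CPM with glucose. The markers of lung epithelium (1 of 6 measured, SFTPC at 0), fibroblast (3 of 8, LUM at 0), endothelium (2 of 6) and leukocytes (1 of 7) summed to at most 13.9 CPM in any library. The summed levels did not overlap between the groups for carcinoma-line markers, leukocyte markers (5.19 to 5.48 CPM with glutamine, 1.7 to 2.13 with glucose) and, in the other direction, lung epithelium markers (0.733 to 1.1 and 1.29 to 1.87 CPM), and their part in the results was not tested.

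Of 16889 genes that passed the low-count filter, 11226 (66.5%) differed at an adjusted p under 0.05 by the quasi-likelihood test of edgeR with Benjamini-Hochberg adjustment. With glutamine 5650 (33.5%) were higher and with glucose 5576 (33.0%), and the groups did not overlap for 68.9% of genes. Calls of at least 2-fold were 725 (4.29%) with glutamine and 942 (5.58%) with glucose, and 65 and 138 genes differed at least 4-fold. The shares of all tested genes at each threshold are the reference for the counts of every gene list below. Without glucose replicate 1 the 2-fold calls were 824 and 936 and the 4-fold ones 100 and 143, and without glucose replicate 2 they were 777 and 978, and 81 and 164. The median difference over all genes was -0.004. When only library totals were used for scaling, this median moved by -0.092 and 40.6% of called genes, in place of 50.3%, were higher with glutamine, so differences below that size depend on the scaling. In bulk RNA fewer cells and less RNA per cell cannot be told apart.

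**Figure D1:**
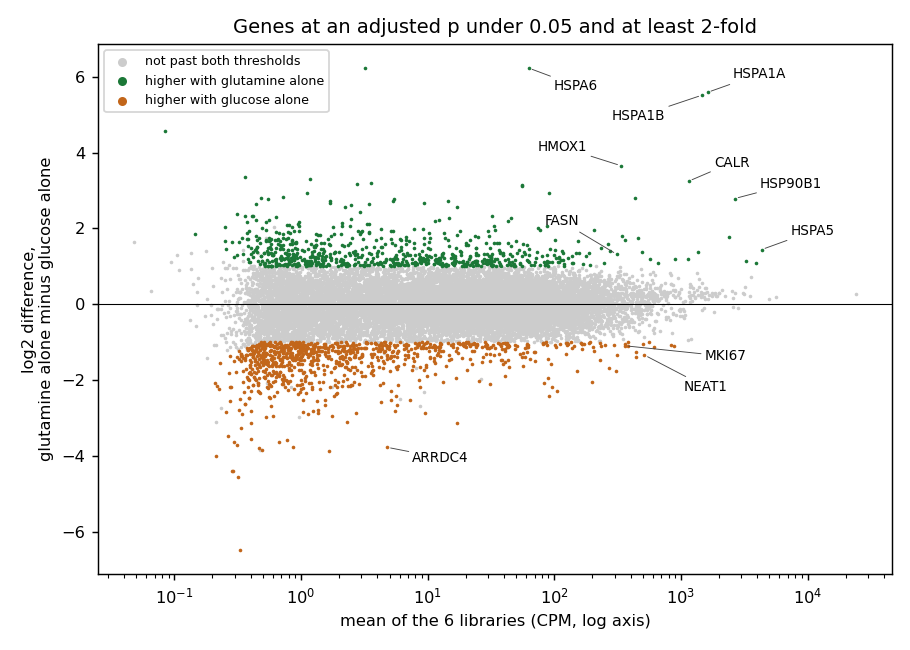
Each point is a tested gene, placed by its mean over the 6 libraries (CPM, log axis) and by the log2 difference, glutamine alone minus glucose alone; green and orange points passed an adjusted p under 0.05 (edgeR) and a 2-fold difference. Chaperone genes are among the green points, such as HSPA6 at 6.23 and HSPA5 at 1.44, while ARRDC4 at -3.78 and NEAT1 at -1.34 lie among the orange ones.

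Chaperone genes made up most of the 12 largest differences toward glutamine among genes that averaged 5 CPM or more: HSPA6, HSPA1A and HSPA1B of the HSP70 family, then CALR, CRELD2, SDF2L1, MANF, PDIA4 and HSP90B1, whose products work in the ER. The other 3 were HMOX1, which encodes the heme-degrading enzyme heme oxygenase 1, ID2, which encodes an inhibitor of helix-loop-helix factors (2.73), and SNAI3-AS1 (2.77). Among the 12 largest toward glucose were DHRS2, a mitochondrial reductase gene (-3.13), AVIL (-2.87), SPX (-2.81), DOK3 (-2.52), DMPK (-2.44), NHSL1-AS1 (-2.42), KCNT2 (-2.12), RASSF1 (-2.11), the ethanolamine kinase gene ETNK1 (-2.07) and WWC3 (-2.06). Of 230 genes whose values are given in the text or figures as named genes, 118 overlap an annotated gene on the other strand, among them CALR, CRELD2, HSP90B1, AVIL, SPX, DOK3, DMPK, RASSF1, WWC3, ID2 and both antisense genes. The library kit keeps strand, but whether strand was used in counting is not given in the sources at hand, so these values are uncertain. HSPA1A and HSPA1B are near-identical copies, and HSPA6 has one in HSPA7, so reads may be split between them.

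All 21 measured genes of ER chaperones and folding enzymes were higher with glutamine, 16 of them at least 2-fold, with a median difference of 1.60, where 33.5% and 4.29% of all tested genes were so called. HSPA5 (ENSG00000044574, chr9:125234853-125241330, minus strand) encodes BiP, the HSP70 of the ER, which holds unfolded chains and keeps the 3 sensors silent. It stood at 6338, 6328 and 6369.6 CPM with glutamine and 2304, 2367 and 2341 CPM with glucose (log2 1.44 ± 0.015). HSP90B1, the HSP90 of the ER, stood at 4599, 4671 and 4681 CPM with glutamine and 658, 677 and 687 CPM with glucose (2.79 ± 0.017). CALR (ENSG00000179218, chr19:12938578-12944489, plus strand), which encodes calreticulin, a lectin chaperone that binds glucosylated glycans, had the largest difference of the list, with 2087, 2089 and 2084 CPM with glutamine and 219.5, 223 and 217 CPM with glucose (3.25 ± 0.020, 9.49-fold). No library of one medium reached a library of the other for these 3 genes (gene coordinates here are GRCh38, GENCODE 29), and within a medium the values lay close together. CANX, the membrane-bound partner of CALR, differed less (1.39), as did the disulfide isomerase genes PDIA3 (1.76), PDIA6 (1.69) and P4HB (1.37), while PDIA4 differed by 2.81. Smaller differences were seen for the oxidase gene ERO1A (0.20), TXNDC5 (0.41), ERP44 (0.45) and DNAJC10 (0.52).

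The shared promoter letters of these genes are shown because 6 of the 20 that matched a RefSeq promoter (GRCh38.p14) hold the ER stress response element, CCAAT and CCACG separated by 9 bases of any kind, on either strand within 250 bases before the start, which is 30.0% of them, whereas 22 of 27305 promoters of that length do (0.08%). The element is known as a site where NF-Y and ATF6 bind side by side. A match describes letters only. Capitals mark the element, and every window is written 5′ to 3′ on the strand of its gene.
HSPA5, chr9:125241376-125241424, minus strand: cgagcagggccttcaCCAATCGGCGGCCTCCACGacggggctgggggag
HSP90B1, chr12:103930201-103930354, plus strand: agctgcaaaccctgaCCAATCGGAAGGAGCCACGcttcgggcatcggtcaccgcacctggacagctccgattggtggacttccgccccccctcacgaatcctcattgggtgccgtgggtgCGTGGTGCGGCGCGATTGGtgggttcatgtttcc
CALR, chr19:12938369-12938417, plus strand: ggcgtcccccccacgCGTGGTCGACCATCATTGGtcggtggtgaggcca
PDIA6, chr2:10812838-10812886, minus strand: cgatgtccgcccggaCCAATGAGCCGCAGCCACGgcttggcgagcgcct
CRELD2, chr22:49918539-49918587, plus strand: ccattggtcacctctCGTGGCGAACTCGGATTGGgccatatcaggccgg
ERO1B, chr1:236282168-236282208, minus strand: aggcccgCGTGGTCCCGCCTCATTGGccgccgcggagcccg
HSP90B1 holds 2 matches, 1 on each strand. The 6 genes with the element differed by 3.25 (CALR), 3.15 (CRELD2), 2.79 (HSP90B1), 1.69 (PDIA6), 1.44 (HSPA5) and 1.33 (ERO1B). SDF2L1, MANF and PDIA4, with differences of 3.11, 2.94 and 2.81, hold no exact match in this window. Of 14 matched promoters of genes for the disposal of misfolded ER proteins, 0 hold it. A single promoter was searched for each gene, so an element at another start of the gene would be missed.

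The reference media placed the ER chaperone genes differently in each arm. With glutamine, 20 of the 21 had a higher mean than with both nutrients (median log2 1.58), whereas with glucose 14 of the 21 had a lower mean than with both (median -0.28). These differences share libraries with the main comparison and are given as values side by side. CALR averaged 544 CPM with both nutrients, between 2087 with glutamine and 219.8 with glucose. MANF, a secreted ER stress protein gene, ran from 161 with glutamine through 45.6 with both to 21.0 CPM with glucose. HSPA5 did not follow that order: it averaged 568 CPM with both nutrients, below the 2337 CPM of the glucose libraries. HYOU1, an ER chaperone gene, was likewise at 789, 347 and 140.0 CPM with glutamine, glucose and both, and DNAJB9, an ER HSP40 gene that differed by 0.62, at 39.4, 25.6 and 13.2 CPM. In the medium with neither nutrient HSPA5 averaged 1063 CPM and CALR 736 CPM.

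The sensors and the machinery around the chaperones did not all follow them. Of 9 genes of the sensors and their membrane-bound or spliced factors 6 were higher with glutamine and 3 with glucose. EIF2AK3, which encodes PERK, differed by 0.50 ± 0.086 and XBP1, the factor spliced by IRE1, by 0.37 ± 0.034. ERN1, the IRE1 gene, was higher with glucose, at 39.5, 37.3 and 38.1 CPM with glutamine and 71.5, 71.2 and 68.4 CPM with glucose (-0.88 ± 0.045), as were ATF6 (-0.66) and ATF6B (-0.57), without overlap between the groups. Of 18 genes for the disposal of misfolded ER proteins 14 were higher with glutamine and 3 with glucose, led by DERL3 (2.65), SEL1L (1.49), SELENOK (1.35) and HERPUD1 (1.22), while EDEM3, a mannose-trimming enzyme gene, was higher with glucose (-0.72). Of 39 genes of translocation into the ER and of COPI and COPII vesicles 34 were higher with glutamine and 4 with glucose (median 0.35), with SRPRB, a subunit gene of the signal recognition particle receptor, at 1.13.

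Genes that build N-linked glycans were also mostly higher with glutamine, 25 of 38 against 9 (median 0.50). The largest differences fell on the supply of activated mannose. MPI interconverts fructose and mannose phosphates, and stood at 36.8, 38.0 and 34.6 CPM with glutamine and 10.3, 10.3 and 10.8 CPM with glucose (1.80 ± 0.071). GMPPB and GMPPA, which encode the enzyme that makes GDP-mannose and its regulatory subunit, differed by 1.62 and 1.36, and the mannosyltransferase gene ALG12 by 1.23. The phosphomannomutase genes between these steps went both ways, PMM2 at 0.58 and PMM1 at -0.68. Subunit genes of the oligosaccharyltransferase such as RPN1 (0.98), STT3A (0.78) and DDOST (0.64) were higher with glutamine, and DAD1 was higher with glucose (-0.12). In the hexosamine pathway, which uses glucose carbon and glutamine nitrogen to make UDP-N-acetylglucosamine, 4 of 9 genes were higher with glutamine and 3 with glucose (median 0.00). Its entry enzyme gene GFPT1 did not pass (-0.06 ± 0.030, adjusted p = 0.0653 by edgeR, passing at -0.07 without glucose replicate 1 and at -0.15 with library totals alone), AMDHD2, a deacetylase gene of that pathway, was higher with glutamine (1.11), and OGA, which encodes the enzyme that removes the sugar from proteins, was higher with glucose (-0.63).

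Of 20 genes of cytosolic heat shock proteins and their cochaperones 19 were higher with glutamine, 12 at least 2-fold (median 1.24). Of all tested genes 33.5% and 4.29% were so called. HSF2 did not pass (0.11 ± 0.055, adjusted p = 0.0694 by edgeR, passing at 0.16 without glucose replicate 3). HSPA6 (ENSG00000173110, chr1:161524540-161526910, plus strand), an HSP70 gene that is nearly silent in unstressed cells, stood at 126, 126 and 120.4 CPM with glutamine and 1.65, 1.47 and 1.83 CPM with glucose (6.23 ± 0.059). HSPA1A stood at 3173, 3219 and 3164 CPM with glutamine and 63.6, 69.0 and 65.9 CPM with glucose (5.59 ± 0.019), and HSPA1B differed by 5.51. For the constitutive HSP70 gene HSPA8 the values were 3681, 3674 and 3729 CPM with glutamine and 1044, 1084 and 1090.1 CPM with glucose (1.78 ± 0.015). The small heat shock gene HSPB1 (1.96), the HSP40 gene DNAJB1 (1.80), the cochaperone gene BAG3 (1.69) and the nucleotide exchange factor gene HSPH1 (1.59) followed, and the HSP90 genes HSP90AA1 and HSP90AB1 differed by 1.14 and 1.07. HSF1, the gene of the factor itself, differed by 0.18 ± 0.028.

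The heat shock element, GAA, TTC and GAA with 2 bases of any kind between neighbours, was searched in the same way, and 4 of 18 matched promoters of this list hold it (22.22%, against 121 of 27305 or 0.44%). They are shown as the promoters of the list that hold it, and their genes differed by 6.23 (HSPA6), 1.78 (HSPA8), 1.14 (HSP90AA1) and 0.44 (CHORDC1). Capitals mark the matches, of which CHORDC1 holds 3 that overlap each other and HSPA8 holds 2.
HSPA6, chr1:161524451-161524493, plus strand: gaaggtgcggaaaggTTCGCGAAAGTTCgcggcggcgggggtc
HSPA8, chr11:123062164-123062381, minus strand: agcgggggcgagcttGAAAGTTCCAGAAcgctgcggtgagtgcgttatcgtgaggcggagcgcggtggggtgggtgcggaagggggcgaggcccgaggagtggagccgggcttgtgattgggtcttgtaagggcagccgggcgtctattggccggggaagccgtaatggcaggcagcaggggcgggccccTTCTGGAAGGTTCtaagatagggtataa
HSP90AA1, chr14:102087105-102087147, minus strand: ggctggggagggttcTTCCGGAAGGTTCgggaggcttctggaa
CHORDC1, chr11:90223072-90223124, minus strand: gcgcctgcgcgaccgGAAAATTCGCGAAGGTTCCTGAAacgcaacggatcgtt
With both nutrients the levels of these genes lay between the arms or above both. All 20 had a lower mean with glucose than with both nutrients (median log2 -1.04), and 13 had a higher mean with glutamine than with both (median 0.22). HSPA1A averaged 381 CPM with both nutrients, HSPA8 2766 CPM, and HSP90AA1 6272 CPM, the last above the 4507 CPM with glutamine and the 2051 CPM with glucose. HSPA6 was about as low with both nutrients (1.79 CPM) as with glucose (1.65 CPM). In the medium with neither nutrient HSPA6 averaged 2634 CPM and HSPA1A 25092 CPM, far above either single-nutrient medium.

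**Figure D2:**
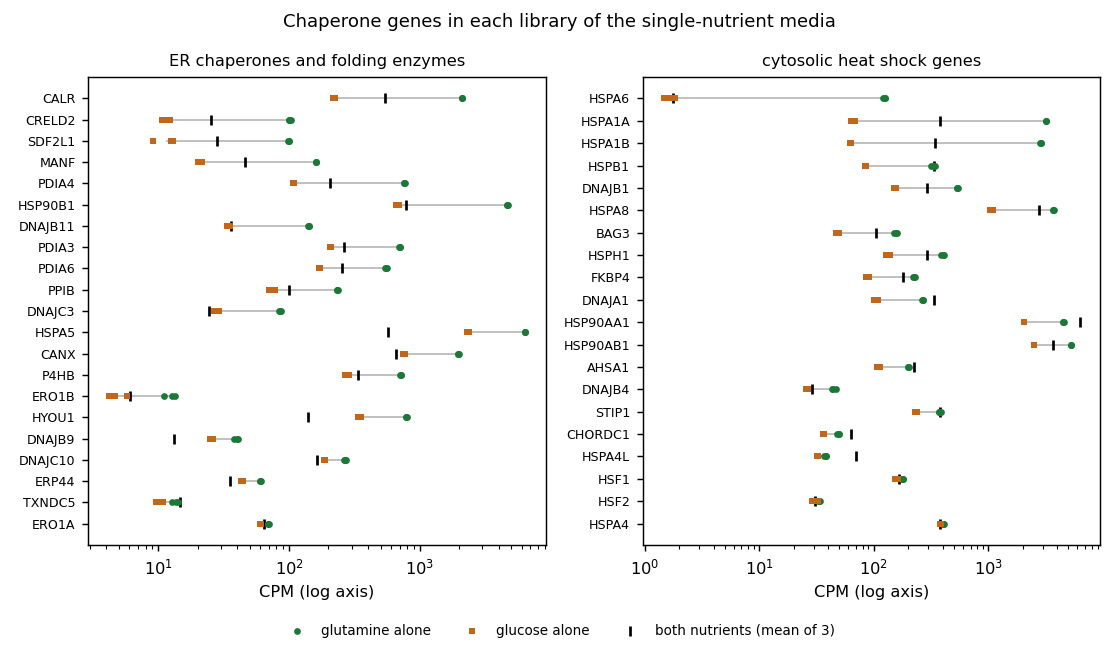
Levels (CPM, log axis) of ER chaperone genes (left) and cytosolic heat shock genes (right) in each of the 3 glutamine (green circles) and 3 glucose (orange squares) libraries, with the mean of the medium with both nutrients as a black bar; genes are ordered by difference. HSPA5 and HYOU1 have the bar left of both groups, CALR and MANF between them, and HSP90AA1 right of both.

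The other folding systems differed less. All 8 subunit genes of the cytosolic chaperonin TRiC were higher with glutamine (median 0.41, CCT5 at 0.57), and of 14 genes of mitochondrial chaperones and proteases 9 were higher with glutamine and 2 with glucose, led by HSPE1, the HSP10 gene (1.02). Of 23 measured genes of the NRF2 list, which covers glutathione, thioredoxin and heme metabolism, 17 were higher with glutamine and 1 with glucose (median 0.38). HMOX1 (ENSG00000100292, chr22:35380361-35394214, plus strand) stood at 622, 630.2 and 614 CPM with glutamine and 47.7, 49.4 and 51.2 CPM with glucose (3.65 ± 0.029, 12.6-fold), and averaged 24.2 CPM with both nutrients and 583 CPM with neither. OSGIN1 (1.22), GCLM, the modifier subunit of glutamate cysteine ligase (1.09), the peroxiredoxin gene PRDX1 (0.87) and the ferritin gene FTH1 (0.83) came next. NQO1, a gene often used to read NRF2 activity, did not pass (-0.03 ± 0.023, adjusted p = 0.311 by edgeR, passing at -0.06 without glucose replicate 1 and at -0.12 with library totals alone), and NFE2L2, the NRF2 gene, was higher with glucose (-0.64).

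The genes of the integrated stress response were high in both arms, and the arms differed in which of its genes stood higher. Of 16 regulators 14 had a higher mean in each single-nutrient medium than with both nutrients, with medians of 2.61 (glutamine) and 3.00 (glucose) on the log2 scale, while between the arms 7 were higher with glutamine and 9 with glucose (median -0.15). ATF4 stood at 554, 543 and 537 CPM with glutamine and 600.3, 611 and 623 CPM with glucose (-0.17 ± 0.020) and averaged 173 CPM with both nutrients. DDIT3 encodes CHOP, a partner factor of ATF4, and stood at 247, 259 and 260.1 CPM with glutamine and 183, 183 and 187 CPM with glucose (0.47 ± 0.027), against 11.1 CPM with both. ATF3, another stress factor gene, was also higher with glutamine (0.73). SESN2 (ENSG00000130766, chr1:28259527-28282491, plus strand), which encodes a leucine-binding inhibitor of mTORC1 signalling, was higher with glucose, at 176, 179 and 177 CPM with glutamine and 448, 449 and 462 CPM with glucose (-1.35 ± 0.025), as were DDIT4, another mTORC1 inhibitor gene (-1.01), the pseudokinase gene TRIB3 (-0.86) and PPP1R15A, whose product brings the phosphatase to eIF2 (-0.40). CHAC1, a glutathione-degrading enzyme gene, differed by 0.18 ± 0.040. Neither ATF4 nor CHAC1 passed when tested against a 1.2-fold difference. Of the 16 regulators the other 2 lay below the medium with both nutrients in each arm: ATF5 at 15.5 CPM with glutamine and 27.4 CPM with glucose against 31.5 CPM with both, and EIF2AK4, the GCN2 gene, at 154 and 147 against 167 CPM.

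The letters TGATGNAA, the composite site of C/EBP and ATF4, were found in 2 of 15 matched promoters of the regulators, those of ATF3 and CHAC1 (13.33%, against 3.26% of all 27305), and are shown for both, which were higher with glutamine.
ATF3, chr1:212565201-212565238, plus strand: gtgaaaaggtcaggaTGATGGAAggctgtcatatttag
CHAC1, chr15:40953247-40953284, plus strand: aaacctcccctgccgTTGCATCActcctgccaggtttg
In capitals is the match, which in CHAC1 lies on the other strand. Among the amino acid transporters 2 of 19 promoters hold it, those of SLC1A3 (-1.51) and SLC1A5 (-0.65), which were higher with glucose. Among genes of amino acid synthesis 1 of 14 does, that of GOT1, also higher with glucose (-0.51). Among the cytosolic aminoacyl-tRNA synthetases 2 of 16 do, those of AARS1 and IARS1, whose differences are not given here.

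Of 22 genes of amino acid synthesis and mitochondrial one-carbon metabolism 10 were higher with glutamine and 6 with glucose (median 0.03). With library totals alone these counts were 7 and 9 (median -0.06). Of the 22 genes 16 had a higher mean in both single-nutrient media than with both nutrients. Of the genes on the way from glutamate to proline PYCR3, PYCR1 and ALDH18A1 were higher with glutamine, PYCR3 at 37.3, 34.5 and 34.8 CPM with glutamine and 12.6, 14.2 and 10.9 CPM with glucose (1.49 ± 0.071), PYCR1 by 0.58 and ALDH18A1 by 0.55. Of the serine pathway, PHGDH (-0.27) and PSAT1 (-0.18) were higher with glucose and SHMT2 (0.86) and SHMT1 (0.64) with glutamine. Transaminase genes went by compartment for aspartate, with the mitochondrial GOT2 at 0.58 and the cytosolic GOT1 at -0.51, and GPT2 was at -0.53. ASNS, which makes asparagine from glutamine, did not pass, at 24.0, 26.4 and 24.1 CPM with glutamine and 25.6, 26.4 and 26.2 CPM with glucose (-0.07 ± 0.066, adjusted p = 0.387 by edgeR, passing at -0.16 with library totals alone), and averaged 2.42 CPM with both nutrients. PCK2, the mitochondrial enzyme gene that turns oxaloacetate into phosphoenolpyruvate, did not pass either (0.00 ± 0.028, adjusted p = 0.901 by edgeR, passing at -0.09 with library totals alone), at 169 and 168 CPM against 24.9 CPM with both.

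Amino acid transporter genes leaned toward glucose, with 13 of 22 measured higher there and 4 higher with glutamine (median -0.22). SLC7A11, the cystine and glutamate exchanger, stood at 129, 126 and 129.6 CPM with glutamine and 281, 274 and 283 CPM with glucose (-1.12 ± 0.028). SLC38A2, a carrier of small neutral amino acids including glutamine, stood at 779, 764 and 767 CPM with glutamine and 1481, 1482 and 1489.9 CPM with glucose (-0.95 ± 0.018). SLC7A5, the light chain of the large neutral amino acid exchanger, differed by -0.92, the glutamine carriers SLC38A1 and SLC1A5 by -0.75 and -0.65, and the cationic carrier SLC7A1 by -0.44. SLC3A2, the heavy chain that SLC7A5 and SLC7A11 share, differed little in the other direction (0.08). The taurine carrier SLC6A6 was the gene of the list with the largest difference toward glutamine (1.14). The glutamate carrier gene SLC1A3 had the largest difference toward glucose (-1.51, 0.275 and 0.820 CPM), with 4, 8 and 3 counts in the glutamine libraries, at or near the floor.

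Of 20 cytosolic aminoacyl-tRNA synthetase genes 9 were higher with glutamine and 8 with glucose (median 0.03), led by FARSA (1.00), KARS1 (0.74) and WARS1 (0.55) on one side and LARS1 (-0.30), NARS1 (-0.27) and MARS1 (-0.26) on the other. QARS1, which charges glutamine, differed by 0.43. Of 17 mitochondrial synthetase genes 13 were higher with glutamine and 2 with glucose (median 0.33), with WARS2 at 1.03. Secreted proteins of the stress response leaned toward glucose, 6 of 10 measured against 3, with the cytokine gene TSLP (-2.09, 1.67 and 7.19 CPM), STC2 (-1.15), ADM2 (-0.96) and GDF15 (-0.64) higher with glucose and HBEGF (1.08) with glutamine. VEGFA differed by 0.09, which did not pass without glutamine replicate 3 (0.08), without glucose replicate 2 (0.07), by DESeq2 (0.08) or against a 1.2-fold difference, and was -0.01 with library totals alone.

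**Figure D3:**
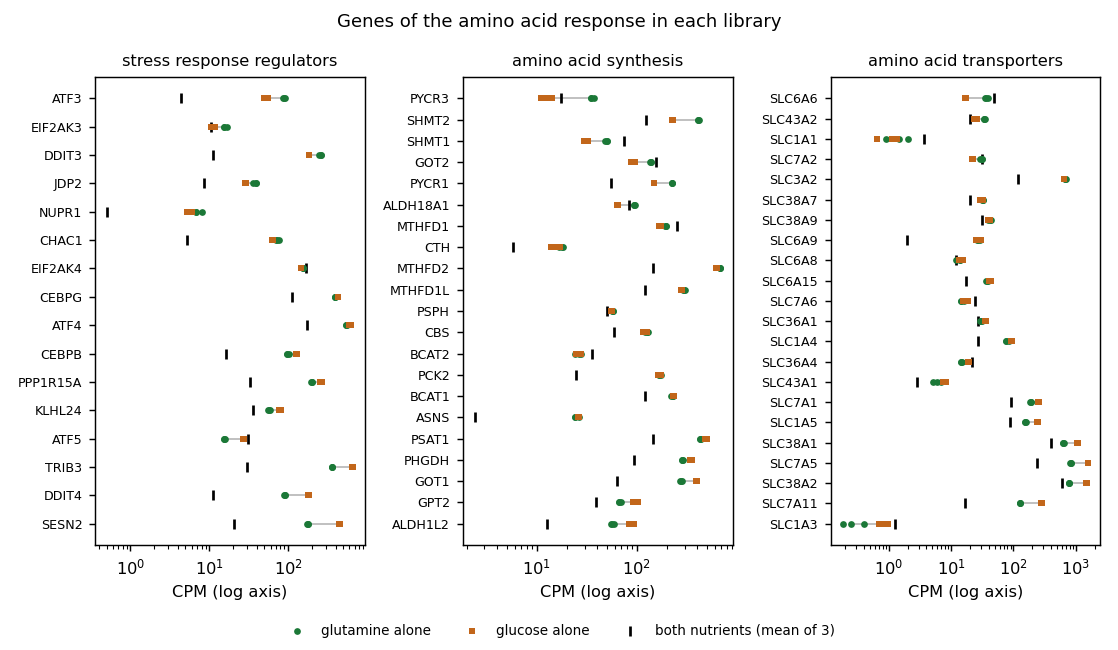
Levels (CPM, log axis) of stress response regulators, amino acid synthesis genes and amino acid transporters in each glutamine (green circles) and glucose (orange squares) library, with the mean of the medium with both nutrients as a black bar; genes are ordered by difference, and 1 gene is not drawn. For most genes both colours lie right of the bar, and TRIB3, SESN2 and SLC7A11 lie farther right with glucose.

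Among genes of glutamine, glutamate and ammonia metabolism 12 of 26 were higher with glutamine and 8 with glucose (median 0.08). Of all tested genes 33.5% and 33.0% were so called. With library totals alone 6 of the 26 were higher with glutamine and 10 with glucose (median -0.01). GLUL, which makes glutamine, differed by 0.14 ± 0.041. GLUD1, the glutamate dehydrogenase gene, differed by 0.20, CAD, which starts pyrimidine synthesis from glutamine, by 0.78, and ASL, the argininosuccinate lyase gene, by 1.18. The aspartate and glutamate carrier gene SLC25A12 was 1 of the 8 higher with glucose (-0.90) and did not have the largest difference among them.

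Of 7 measured genes of MondoA, its partners and its glucose-responsive targets 5 were higher with glucose and 0 with glutamine. ARRDC4, an arrestin-domain gene that limits glucose uptake, stood at 0.672, 0.499 and 0.792 CPM with glutamine and 9.56, 8.67 and 8.51 CPM with glucose (-3.78 ± 0.20, 13.7-fold), and averaged 1.06 CPM with both nutrients and 0.786 CPM with neither. The 3 glucose libraries thus stood above every glutamine library and above both reference means. ARRDC3 (-0.58) and KLF10 (-0.59) were higher with glucose by less. Unlike ARRDC4, both stood higher with neither nutrient than with glucose. ARRDC3 averaged 141 CPM with neither, 98.0 with glucose, 65.7 with glutamine and 49.7 with both. KLF10 averaged 225, 81.1, 53.7 and 51.9 CPM in the same order. TXNIP, the best known of these targets, was too low to be tested, with at most 8 counts in any library. The factor gene MLXIP differed by -0.25.

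Genes of glucose transport and glycolysis were mostly higher in the cells that had no glucose, 15 of 23 against 6 (median 0.23), with 0 at least 2-fold. The transporter gene SLC2A1 stood at 114, 111 and 110.4 CPM with glutamine and 54.2, 57.4 and 57.1 CPM with glucose (0.99 ± 0.035). The phosphofructokinase genes PFKL (0.70), PFKM (0.68) and PFKP (0.27) and the hexokinase gene HK2 (0.37) were higher with glutamine, while LDHA (-0.11), ENO2 (-0.45) and the transporter gene SLC2A3 (-0.14) were higher with glucose. Of 7 genes of the pentose phosphate pathway 6 were higher with glutamine, with PGD, the phosphogluconate dehydrogenase gene, at 248, 249 and 244 CPM with glutamine and 155, 152 and 158 CPM with glucose (0.67 ± 0.026). Of 32 genes of pyruvate entry and the tricarboxylic acid cycle 21 were higher with glutamine and 3 with glucose (median 0.26), such as IDH3G (0.89), IDH2 (0.72) and SUCLG2 (0.68) against SDHC (-0.23). Nuclear genes of the respiratory chain followed with 29 of 48 against 10 (median 0.13), a median close to the size that scaling moves. Of 24 measured genes of fatty acid oxidation 7 were higher with glutamine and 9 with glucose, where 33.5% and 33.0% of all tested genes were. Among the 9 was PDK4, a kinase that blocks pyruvate entry, at -2.05 from 0.532 and 2.23 CPM.

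Cholesterol synthesis genes were mostly low in both arms beside the medium with both nutrients. Of 22 cholesterol synthesis genes 15 were higher with glutamine and 2 with glucose (median 0.44), and 21 of the 22 had a lower mean in both single-nutrient media than with both (medians -1.59 with glutamine and -2.24 with glucose). HMGCS1, which makes HMG-CoA, stood at 71.5, 73.6 and 78.3 CPM with glutamine and 39.8, 40.8 and 43.1 CPM with glucose (0.85 ± 0.039), against 365 CPM with both nutrients. The sterol reductase gene DHCR7 differed by 0.95 and HSD17B7 by 1.16, while LBR (-0.27) and GGPS1 (-0.62) were higher with glucose. In the medium with neither nutrient DHCR7 averaged 104 CPM, above the 53.2 CPM with glutamine and the 27.6 CPM with glucose. HMGCS1 averaged 71.3 CPM there, near the glutamine libraries, and LBR 60.2 CPM, below the 72.3 CPM with glutamine and the 87.1 CPM with glucose.

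Of 27 measured genes of fatty acid and glycerolipid synthesis 18 were higher with glutamine and 5 with glucose (median 0.30), and 18 had a lower mean in both single-nutrient media than with both nutrients. FASN, fatty acid synthase, stood at 438, 451 and 446 CPM with glutamine and 175, 181 and 180.3 CPM with glucose (1.31 ± 0.021) and averaged 2058 CPM with both nutrients. SCD, the stearoyl-CoA desaturase gene, stood at 1048, 1061 and 1065 CPM with glutamine and 614, 615 and 624 CPM with glucose (0.78 ± 0.016), against 4014 CPM with both. No glucose library reached a glutamine library for either gene. ACACA (0.56), ACLY (0.46) and the citrate carrier gene SLC25A1 (0.82) were also higher with glutamine, and MID1IP1, an activator of acetyl-CoA carboxylase (-0.55), DGAT2 (-0.51) and LPIN1 (-0.28) with glucose. In the medium with neither nutrient FASN averaged 551 CPM and SCD 1184 CPM, above both arms and below the medium with both. MID1IP1 averaged 37.6 CPM there, below the 51.1 CPM with glutamine and the 74.9 CPM with glucose. Of 14 measured genes of the SREBP system 8 were higher with glutamine and 4 with glucose (median 0.28). With library totals alone these counts were 8 and 5. STARD4 (1.12), INSIG1 (0.60), SCAP (0.45) and SREBF2 (0.43) were among those higher with glutamine. SREBF1 differed by 0.23 ± 0.032, which did not pass against a 1.2-fold difference.

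Genes of the cell cycle divided by phase. Of 30 genes of replication origins and forks 22 were higher with glutamine and 3 with glucose (median 0.31), whereas of 24 genes of mitosis and the kinetochore 22 were higher with glucose and 2 with glutamine (median -0.63, 6 at least 2-fold). Of all tested genes 33.0% were higher with glucose, 5.58% at least 2-fold. CDC6, which loads the replicative helicase, stood at 55.2, 55.3 and 57.7 CPM with glutamine and 21.5, 22.5 and 23.9 CPM with glucose (1.31 ± 0.051), and MCM2, a helicase subunit, differed by 0.96, GINS2 by 1.09 and CDT1 by 0.63. PCNA (-0.13) and POLA1 (-0.42) were higher with glucose. MKI67 (ENSG00000148773, chr10:128096659-128126385, minus strand), the proliferation marker Ki-67, stood at 225, 233 and 235 CPM with glutamine and 491, 492 and 501 CPM with glucose (-1.10 ± 0.022). AURKA (-1.24), the centromeric histone gene CENPA (-1.26), NDC80 (-1.18), CENPE (-1.11) and KIF11 (-1.03) were 2-fold or more higher with glucose as well, while CDC20 (0.27) and UBE2C (0.16) were higher with glutamine. Beside the medium with both nutrients, all 30 replication genes had a lower mean with glucose and 27 with glutamine, while 23 of the 24 mitosis genes had a lower mean with glutamine and 7 with glucose. MKI67 averaged 476 CPM with both nutrients and 487 CPM with neither, both near the glucose libraries. With neither nutrient AURKA (331 CPM), CDC6 (81.7 CPM) and MCM2 (463 CPM) lay above the means of both arms. CENPA (56.4 CPM), CENPE (127 CPM), KIF11 (192 CPM) and NDC80 (218 CPM) lay between the arms there.

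**Figure D4:**
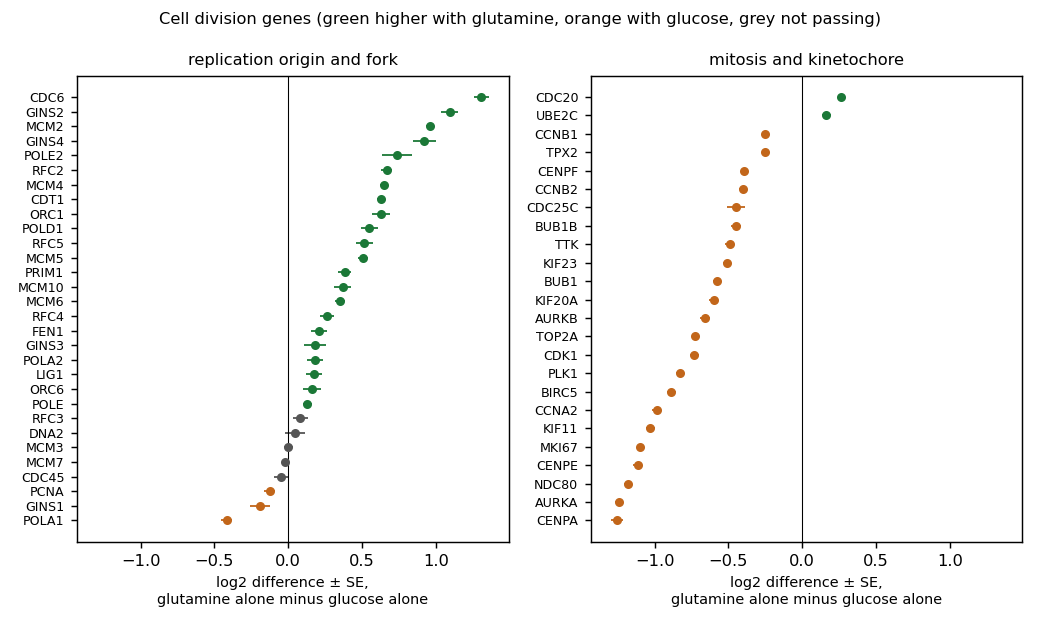
Log2 difference with its SE, glutamine alone minus glucose alone, of each replication gene (left) and each mitosis gene (right); green is higher with glutamine, orange with glucose and grey did not pass. The replication genes reach 1.31 at CDC6 and the mitosis genes -1.26 at CENPA.

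Regulators of G1 leaned toward glucose, 14 of 22 measured against 7, beside 33.0% and 33.5% of all tested genes. The inhibitor genes CDKN2D, at 11.1, 11.9 and 10.9 CPM with glutamine and 33.7, 33.2 and 34.4 CPM with glucose (-1.57 ± 0.069), CDKN2C (-1.08) and CDKN1B (-0.89) were higher with glucose, and so were the cyclin genes CCND2 (-1.50) and CCND1 (-0.42) and the kinase gene CDK6 (-0.97). CDK4 (0.41), CCNE1 (0.38) and the inhibitor gene CDKN1A (0.32) were higher with glutamine.

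Genes for making proteins leaned toward glutamine by small amounts. All 79 cytosolic ribosomal protein genes were higher with glutamine, with a median of 0.26 and a range of 0.11 to 0.62, and 77 of them were with library totals alone. None differed 2-fold, and RPL10A, an abundant example, differed by 0.53. Genes of ribosome biogenesis and RNA polymerase I were higher with glutamine for 20 of 24 (median 0.45), such as RRP9 (0.90), BOP1 (0.89) and NOP56 (0.74). The same held for 34 of 46 mitochondrial ribosomal protein genes (median 0.37), 26 of 34 proteasome subunit genes (median 0.25, PSMB6 at 1.25) and 18 of 24 genes of nucleotide synthesis (median 0.22). The host genes of small nucleolar RNAs went both ways, 9 of 15 against 5, with GAS5 at 0.69 and SNHG1 at -0.70. Of 11 polyamine genes 5 were higher with glutamine, led by the spermidine synthase gene SRM (1.30), and 2 with glucose (median 0.15). With library totals alone 4 were higher with glutamine and 4 with glucose. The mitochondrial chromosome held 0.909% ± 0.0228 of counts with glutamine and 0.856% ± 0.00988 with glucose (SD, n = 3 each, exact permutation p = 0.1, two-sided).

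Several signalling lists leaned toward glucose. Of 22 measured immediate early genes and feedback genes of the ERK pathway 16 were higher with glucose and 5 with glutamine (median -0.56). The feedback inhibitor gene SPRY4 stood at 146, 149 and 147 CPM with glutamine and 313, 319.9 and 321 CPM with glucose (-1.11 ± 0.026), and the phosphatase gene DUSP6 (-1.08) and the factor genes FOSL1 (-1.09), ETV4 (-1.11) and IER2 (-0.98) were also higher with glucose. FOS and FOSB went the other way, FOS at 72.6, 73.2 and 68.2 CPM with glutamine and 16.2, 15.6 and 14.8 CPM with glucose (2.20 ± 0.044) and FOSB at 2.56. EGR2 (-2.25, 0.348 and 1.65 CPM) and EGR3 (-2.18, 0.702 and 3.13 CPM) had the largest differences toward glucose, at low levels. EGR2 had 8, 5 and 5 counts in the glutamine libraries, near the floor of 3 counts. EGR1 differed by -0.31 ± 0.027, at 158 and 196 CPM against the 12.5 CPM of the medium with both nutrients.

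Of 14 genes of YAP, its TEAD partners and their targets 9 were higher with glucose and 4 with glutamine (median -0.54). CCN2, a matricellular target gene, stood at 77.4, 76.4 and 78.2 CPM with glutamine and 317, 328 and 322 CPM with glucose (-2.06 ± 0.030), AJUBA differed by -1.58, TEAD1 by -1.04 and CCN1 by -0.79, while WWTR1, which encodes the YAP relative TAZ, was higher with glutamine (0.35). Of 14 measured NF-kB genes 10 were higher with glucose and 0 with glutamine (median -0.25), led by BIRC3 (-1.27). Among Kruppel-like factor genes 8 of 11 were higher with glucose and 3 with glutamine, with KLF9 at -1.07, KLF6 at -0.94 and KLF2 at 0.44. Metallothionein and zinc control genes were higher with glucose for all 4 that could be measured of 9 (median -1.04), the zinc exporter gene SLC30A1 at 21.2, 21.7 and 20.2 CPM with glutamine and 65.9, 68.0 and 66.7 CPM with glucose (-1.67 ± 0.053) and MT2A at -0.85.

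Autophagy genes were higher with glucose for 14 of 28 and with glutamine for 8 (median -0.20), beside 33.0% and 33.5% of all tested genes. The LC3 and GABARAP family, which coats the growing membrane, was among those higher with glucose, with MAP1LC3B at 394, 388 and 379 CPM with glutamine and 819.9, 859 and 859 CPM with glucose (-1.13 ± 0.021), GABARAPL1 at -0.97 and GABARAPL2 at -0.77, whereas ATG7, the enzyme gene that activates them, was higher with glutamine (0.81). Lysosomal genes were higher with glutamine for 19 of 32 against 6 (median 0.17), and for 15 against 10 with library totals alone. The BCL2 family and death receptors split evenly, 10 of 20 with glutamine and 9 with glucose. MCL1, a short-lived survival gene, stood at 256, 263 and 262 CPM with glutamine and 621, 624 and 625 CPM with glucose (-1.26 ± 0.022), and the pro-apoptotic gene BBC3 (-1.11) and the survival gene BCL2L2 (-1.05) were also higher with glucose. BID (1.02) and the decoy receptor gene TNFRSF10D (1.12) were higher with glutamine, and TNFRSF10B, a TRAIL receptor gene, with glucose (-0.64).

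Long noncoding RNAs leaned toward glucose. NEAT1, the scaffold of nuclear paraspeckles, stood at 290.3, 289 and 294 CPM with glutamine and 739, 736 and 739 CPM with glucose (-1.34 ± 0.021), and TUG1 (-0.55), NORAD (-0.47) and MALAT1 (-0.35) differed in the same direction by less. By annotation, 38.1% of 779 lincRNA genes tested were higher with glucose and 13.6% with glutamine (34.3% and 11.4% of 826 without glucose replicate 1), and of 918 antisense genes the shares were 32.7% and 11.7% (28.6% and 11.4% of 974). Protein-coding genes were nearly even, 34.4% and 37.6% of 13199, and pseudogenes leaned the other way, 18.1% and 26.9% of 1459 (15.3% and 22.8% of 1526 without glucose replicate 1). Among protein-coding genes, those at least 2-fold higher with glucose had a median level of 2.21 CPM and those at least 2-fold higher with glutamine 8.79 CPM, against 27.9 CPM over all that were tested.

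**Figure D5:**
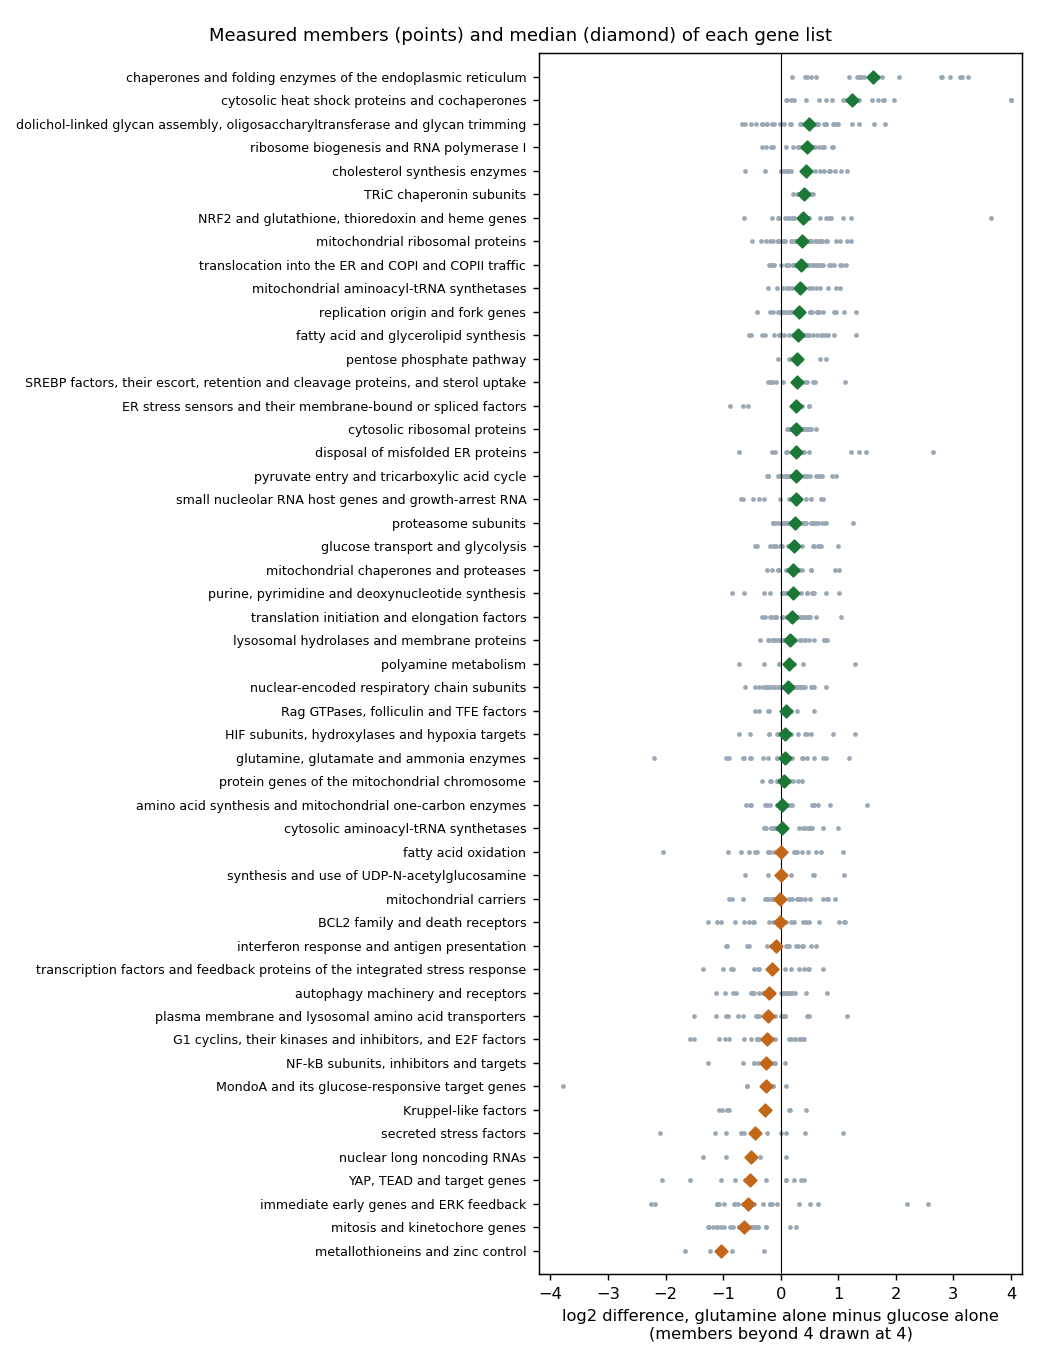
Log2 difference, glutamine alone minus glucose alone, of every measured member of each gene list (grey points) with the median of the list (diamond, green above 0 and orange at or below 0 after rounding to 2 decimals); members beyond 4 are drawn at 4. ER chaperones (median 1.60) and cytosolic heat shock genes (1.24) stand at the top, and mitosis (-0.63) and metallothionein genes (-1.04) at the bottom.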

How the data were processed

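Polyadenylated RNA of H1299 cells was sequenced from strand-keeping libraries, per the labels' protocols. Per the submitters' processing notes the tools were HISAT2 2.1.0 and featureCounts of Subread 1.5.1 with GRCh38.p12; neither the strand setting nor the handling of reads with several positions is stated there, and these are not given in the sources here. The deposited values are raw counts per gene, which the authors did not normalize. Of 58395 gene IDs 58275 were found in GENCODE 29. Counts were filtered (filterByExpr), scaled by TMM and fitted with the quasi-likelihood test of edgeR 4.0.16 (R 4.3.3, robust) over all 15 libraries with 1 mean per medium, leaving 10 residual degrees of freedom. Adjusted p-values are Benjamini-Hochberg values over 16889 genes, with a threshold of 0.05. The code was tested on simulated data. Alternatives were DESeq2 1.42.0 and its size factors, library totals, other filters, the compared media alone, a replicate block, a 1.2-fold test and leaving out each library.

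The members and gene lists were chosen with earlier results of these data known. Genes named are the 12 largest differences each way with a mean of at least 5 CPM, symbol and no overlap between groups, a fixed panel, and members of each list in either direction, not always those with the largest differences, with some that did not pass; some genes are not reported here. Promoters of 250 bases before the start came from RefSeq (GRCh38.p14). A single promoter was kept for each gene symbol, the one with the lowest coordinate, whatever the strand. Where a gene has other starts, these were not searched, and the shares of promoters with a site hold for the promoters kept. Other sites were searched in the same way and are not shown. That of SREBP was in 0 of 17 promoters of cholesterol synthesis, 1 of 14 of the SREBP system and 2 of 24 of fatty acid synthesis (0.9% of all). That of MondoA was in 0 of 7 of its list (0.03% of all), and that of NRF2 in 3 of 16 of its list (2.63% of all). Depth was 15892933 to 19938691 counts in the 6 libraries.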

Additional observations from a re-analysis of the deposited data

How the results depend on the processing

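The counts of genes called at an adjusted p under 0.05, and of those at least 2-fold, stayed within 1.5 times of 11226 and 1667 under every alternative except the test against a 1.2-fold difference, which called 6691 genes (3305 higher with glutamine and 3386 with glucose); that test asks for a larger difference by construction. The fit with the replicate block called 11197 genes, of which 11175 had the same call without it, and 1662 at least 2-fold. Same-numbered libraries did not deviate together (correlations of -0.003783, -0.01037 and 0.003095), so the numbers were not taken as pairs. Leaving out 1 library gave 10643 to 10858 called genes and 1734 to 1776 at least 2-fold. DESeq2 called 10352, and omitting the 3 libraries of the series with many low-count genes, an alternative chosen after seeing the data, 10726. With library totals alone 4566 genes were higher with glutamine and 6670 with glucose. Some lists that leaned to glutamine by count then leaned to glucose. Among them were the hexosamine pathway (3 against 5), the cytosolic synthetases (9 against 10) and the BCL2 family and death receptors (8 against 10).

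Of 3420 values of 228 named genes under alternatives, 3365 kept their direction and side of the threshold, 34 lost the call, 11 gained it and 10 changed sign. PCK2 reversed to -0.0877 with library totals alone, -0.0004 with the compared media alone and -0.0013 omitting the 3 libraries, and ranged from -0.0121 to 0.0289 when 1 library was left out (below 0 without glutamine replicate 3, glucose replicate 1 or glucose replicate 3). With library totals SLC3A2 was -0.012, EIF2AK4 -0.0192 and VEGFA -0.0053, and NQO1 was 0.0005 with no low-count filter; the cause was not tested. Values that lost their call with library totals were CHAC1 (0.08) and GLUL (0.05). Of the named genes, 26 were called but did not pass against a 1.2-fold difference. Over the 51 lists that are not cell type markers, list medians moved by at most 0.12, and 28 of 714 changed sign, all for medians near 0. With 1 measured gene the lung epithelium marker went from -1.0 to -0.66 and did not pass without glucose replicate 1, and the median of the 2 measured endothelium markers went from 0.64 to -0.12 without glucose replicate 2. A floor of 3 counts (0.150 to 0.183 CPM) limits what can be said of low genes.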

Other observations

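Some gene sets were chosen after their values were seen and are given as values. Of 53 histone genes that could be measured 0 were higher with glutamine and 30 with glucose, 13 of them at least 2-fold, with a median log2 difference of -0.49 (29 and -0.53 without glucose replicate 1). The shares of all tested genes higher with glucose were 33.0%, and 5.58% at least 2-fold. Histone messages largely lack poly(A) tails, and libraries made from polyadenylated RNA hold few of them; the median level of these genes was 3.52 CPM. Of 234 zinc finger (ZNF) genes on chromosome 19, 126 were higher with glucose and 32 with glutamine (median -0.28). Of 236 ZNF genes on other chromosomes 77 and 68 were (median -0.02), and of 775 other protein-coding genes of chromosome 19, 282 and 303 were (median 0.01). The difference between these sets was not tested.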
